A study of Mus musculus with 9 samples.

Results

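Cortices that lacked Cnot3 alone were compared with cortices that lacked Cnot3 and Trp53 together, to find which transcripts were high after Cnot3 loss only when p53 was present. The comparison used 6 of the 9 RNA-seq libraries of this experiment, 3 Cnot3 cKO and 3 Cnot3;Trp53 dcKO, chosen by their labels. Each library came from the microdissected cortex of a single mouse embryo at E12.5. In cKO cortices the floxed Cnot3 alleles were removed by Emx1-Cre, and in dcKO cortices the same Cre also removed floxed Trp53 alleles. Emx1-Cre acts in radial glia of the dorsal telencephalon and is inherited by the neurons they make, so other cells in the dissected tissue kept both genes. The other 3 libraries, Ctrl, were labelled WT and are given beside the mutants as background. Whether Ctrl or mutant embryos carried further alleles is not given in the sources used here.

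CNOT3 is a subunit of CCR4-NOT, the complex that shortens the poly(A) tails of mRNAs. p53, the product of Trp53, is a transcription factor that stress signals stabilize. It binds response elements near its target genes and raises transcription of cell cycle inhibitors, death receptors and BCL2 family members, metabolic enzymes, and its own negative regulators such as Mdm2. In the embryonic cortex, stabilized p53 in progenitors is known for arrest and apoptosis that can lead to a small brain.

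The dcKO embryos were unequal in the genes that had been targeted. CPM (counts of a gene scaled to a common library size by TMM) of Trp53 were 167, 164 and 167 in cKO replicates 1, 2 and 3. In dcKO replicates 1, 2 and 3 they were 15.1, 110 and 20.6, which is 9.08%, 66.5% and 12.4% of the cKO mean. Cnot3 was at 15.0, 17.2 and 14.6 CPM in cKO and at 7.33, 48.2 and 19.0 CPM in dcKO, against 98.2 to 117 CPM in Ctrl. Thus dcKO replicate 2 kept the most RNA of both genes, and its genotype was taken as labelled. This embryo also held reads of subpallial genes that were nearly absent elsewhere. Dlx2 had 88 reads, Gsx2 96 and Gad2 80, against at most 8, 0 and 6 in any other embryo. The summed level of the 15 subpallial genes listed was 81.05 CPM in it, 32.9 to 38.5 CPM in the other mutants and 51.8 to 61.6 CPM in Ctrl. Of the 15, 12 had too few reads to be tested and Gsx1 had 0 in all. The part of this tissue in the results was not tested. The log2 fold change of Trp53 in dcKO against cKO was -1.77 (standard error 0.61, edgeR adjusted p = 0.889). It ran from -3.22 to -1.34 with one embryo left out, and Trp53 was called lower without dcKO replicate 2 and with limma voom. Voom gave dcKO replicates 1, 2 and 3 quality weights of 1.19, 0.125 and 0.112. On the dcKO side every voom result here thus rests mostly on replicate 1. Libraries of cKO held 24835674 to 25946075 counted reads and those of dcKO 23275370 to 45073349. The dcKO libraries also differed in how level moved with the GC content of genes. The median log2 ratio to the cKO mean in the quintile of genes with the highest GC content, minus that at the lowest, was -1.05, -1.37 and 0.93 in dcKO replicates 1, 2 and 3. In cKO it lay between -0.14 and 0.19. It was 0.82, 0.79 and 0.36 in Ctrl replicates 1, 2 and 3, so comparisons of cKO with Ctrl carry a GC difference too. Xist, which is transcribed from an inactive X chromosome, had reads in Ctrl replicates 2 and 3, cKO replicate 1 and dcKO replicate 2.

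In an edgeR model of all 9 embryos, 2 of 13680 genes tested (0.0146%) fell in dcKO relative to cKO, Phlda3 and Eda2r, and 0 rose. The test asked for an adjusted p under 0.05 and a log2 fold change beyond 1 in size. At an unadjusted edgeR p under 0.05 there were 325 lower genes (2.38%) and 280 higher genes (2.05%). DESeq2 on the same genes called 48 lower (0.351%) and 4 higher (0.0292%). Without any test, every dcKO value was under every cKO value for 496 genes (3.63%) and above for 358 (2.62%). The median log2 fold change of all genes tested was 0.07. The count of calls rested on single embryos. Leaving out dcKO replicate 3 gave 883 lower and 353 higher genes. Without dcKO replicate 2 it called 4 lower and 0 higher, and without cKO replicate 1, cKO replicate 2 or dcKO replicate 1 it called 0 in both directions. Without Ctrl replicate 1, Ctrl replicate 2 or cKO replicate 3 it called 1 lower gene, and without Ctrl replicate 3 it called 2 lower and 1 higher.

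**Figure D1:**
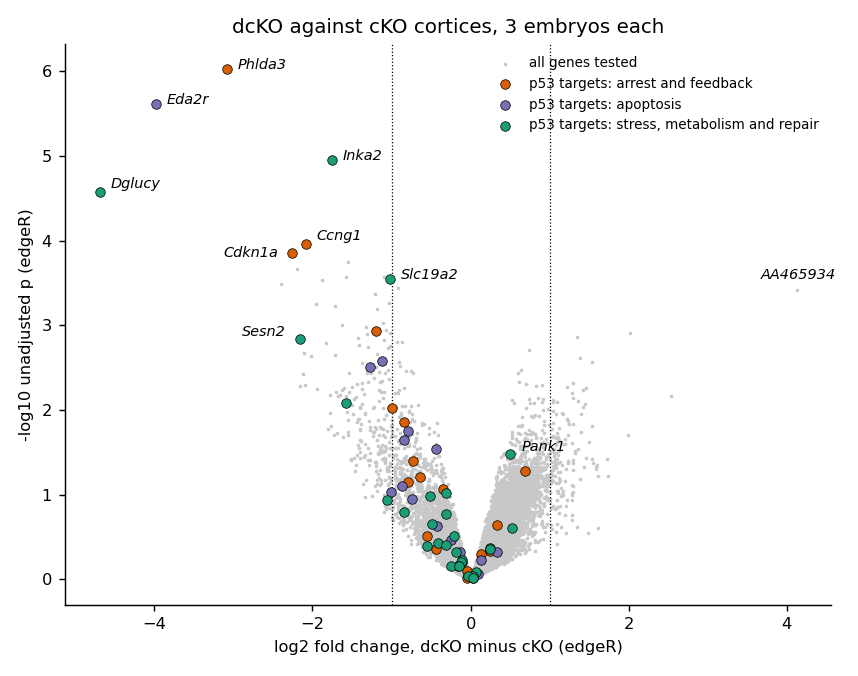
Log2 fold change of dcKO against cKO (x axis) and minus log10 of the unadjusted edgeR p (y axis) for the 13680 genes tested, with the tested members of 3 lists of p53 target genes coloured. Phlda3 and Eda2r stand at the top left, and Pank1 is the list member on the right with an unadjusted p under 0.05. Dotted lines mark a log2 fold change of 1 in either direction.

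Phlda3 (ENSMUSG00000041801.6), a p53 target whose product competes with AKT for membrane lipids, is on chromosome 1 from 135766119 to 135769136 of GRCm38. It was at 27.7, 32.4 and 20.6 CPM in the 3 cKO embryos and at 3.17, 2.66 and 3.68 CPM in the 3 dcKO embryos. Ctrl embryos had 8.64, 6.0 and 6.89 CPM, so every dcKO embryo also lay below every Ctrl embryo. Phlda3 fell 8.48-fold from cKO to dcKO (log2 fold change -3.08, standard error 0.30, edgeR adjusted p = 0.0130). Against Ctrl its log2 fold change was 1.90 in cKO and -1.18 in dcKO (edgeR standard errors 0.28 and 0.28). Eda2r (ENSMUSG00000034457.11), a receptor of the TNF receptor superfamily on chromosome X from 97333840 to 97377216, was at 40.1, 58.5 and 36.3 CPM in cKO. In dcKO it was at 4.28, 2.83 and 1.37 CPM, and in Ctrl at 2.00, 2.38 and 2.85 CPM. The dcKO values spanned those of Ctrl, and the cKO values stood apart from both. Eda2r fell 15.8-fold (log2 fold change -3.98, standard error 0.42, edgeR adjusted p = 0.0168).

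Both of these calls were close to the limit. The log2 fold change of Eda2r stayed between -4.40 and -3.66 with any one embryo left out, but its edgeR adjusted p rose to between 0.0525 and 0.118 without Ctrl replicate 1 or 2, without any one cKO embryo, or without dcKO replicate 1 or 2. That of Phlda3 rose to between 0.0841 and 0.118 without cKO replicate 1, cKO replicate 2 or dcKO replicate 1, at log2 fold changes between -3.09 and -2.93. With a correction for GC content the edgeR adjusted p of Phlda3 was 0.113 at a log2 fold change of -2.57, and that of Eda2r was 0.000538 at -4.30. With a block for the replicate number it was 0.116 for each gene. In a fit of the 6 cKO and dcKO embryos alone it was 0.1315 for each. All 3 dcKO embryos lay below all 3 cKO embryos for both genes, and an exact two-sided permutation test of 3 against 3 cannot go below p = 0.1, which each gene reached.

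Dglucy, Inka2 and Slc19a2 were called lower by DESeq2 and missed the edgeR limit. Dglucy (ENSMUSG00000021185.17), a mitochondrial D-glutamate cyclase on chromosome 12, was at 38.6, 46.2 and 31.9 CPM in cKO and at 2.78, 0.358 and 1.37 CPM in dcKO. Ctrl had 3.79, 3.17 and 1.62 CPM. Its difference was the largest among the genes named here (log2 fold change -4.69, standard error 0.65, edgeR adjusted p = 0.0907, DESeq2 adjusted p = 2.5e-13). Inka2 (ENSMUSG00000048458.9), an inhibitor of the kinase PAK4 on chromosome 3, was at 35.9, 45.03 and 34.4 CPM in cKO and at 12.6, 11.9 and 9.56 CPM in dcKO. Ctrl embryos had 12.01 to 12.9 CPM and overlapped the dcKO embryos, whose mean was 11.4 ± 1.60 (SD, n = 3). The log2 fold change of Inka2 was -1.76 (standard error 0.22, edgeR adjusted p = 0.0511, DESeq2 adjusted p = 4.92e-13). Slc19a2, a thiamine transporter, was at 39.8, 43.5 and 40.9 CPM in cKO and at 19.9, 23.0 and 18.1 CPM in dcKO (log2 fold change -1.02, DESeq2 adjusted p = 1.63e-05). Its 3 dcKO embryos still lay above the 15.6 to 17.4 CPM of Ctrl.

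Cdkn1a, which encodes the CDK inhibitor p21, was at 86.6, 124 and 68.1 CPM in cKO and at 27.9, 8.99 and 21.5 CPM in dcKO. Ccng1, cyclin G1, was at 156, 185 and 146 CPM in cKO and at 42.4, 54.4 and 17.8 CPM in dcKO. Sesn2, a stress-induced inhibitor of mTORC1, was at 41.4, 63.4 and 30.01 CPM in cKO and at 6.36, 4.90 and 19.1 CPM in dcKO. In all 3 genes the embryos of the 2 genotypes did not overlap, and no dcKO embryo was the highest in every gene. dcKO replicate 2, which kept the most Trp53 RNA, was the highest of the dcKO embryos for Ccng1 and the lowest for Cdkn1a and Sesn2.

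**Figure D2:**
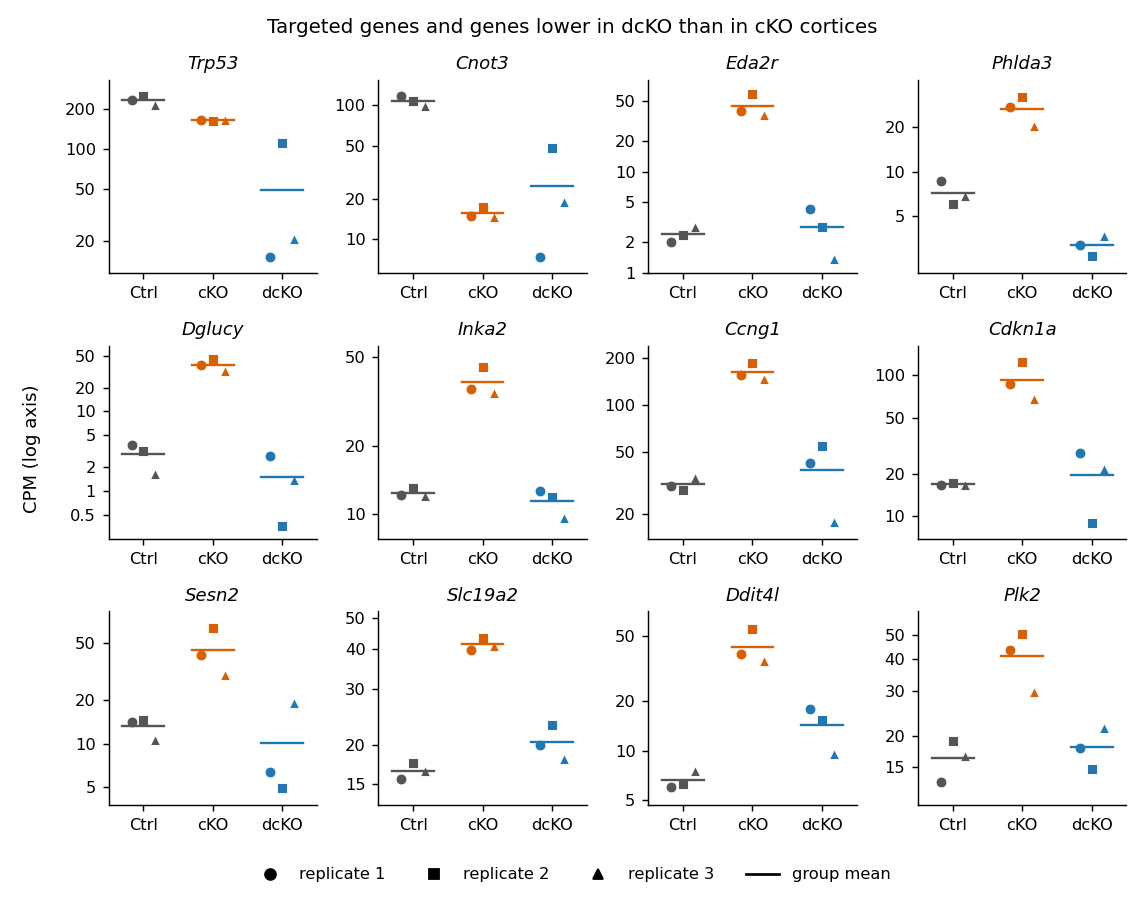
CPM of Trp53, Cnot3 and 10 genes that were lower in dcKO than in cKO, one point per embryo (circle, square and triangle for replicates 1, 2 and 3) on a log axis, with the mean of each genotype as a line. For the 10 genes every dcKO point lies below every cKO point, whereas Cnot3 overlaps and Trp53 in dcKO replicate 2 is at 110 CPM.

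The 20 lower genes with the smallest edgeR p among those whose embryos did not overlap were looked at together. This choice uses the comparison itself and is a description. It favours high cKO and low dcKO values, so the shares of all genes given below are not a matched background. Of the 20, 7 were members of the p53 target lists, and in 15 every cKO embryo lay above every Ctrl embryo, against 29.2% of all genes tested. Their log2 fold changes ran from -4.69 to -0.92. In 10 of the 20 every dcKO embryo also lay below every Ctrl embryo, against 11.2% of all genes tested. dcKO replicate 1 was the lowest of the dcKO embryos in 5 of them, replicate 2 in 8 and replicate 3 in 7.

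Of the 13 outside the p53 lists, 8 had every cKO embryo above every Ctrl embryo, namely Ddit4l, Serpine2, Foxo3, Fcgr3, Fcrls, Ass1, Tgfbi and Lgals3bp. Ddit4l, a relative of REDD1 that lowers mTORC1 signalling, was at 38.9, 54.6 and 34.8 CPM in cKO and at 17.9, 15.4 and 9.56 CPM in dcKO. Ctrl had 5.99 to 7.54 CPM, so the dcKO embryos lay between the other genotypes. Its log2 fold change was -1.58 (standard error 0.29, edgeR adjusted p = 0.331, DESeq2 adjusted p = 0.000170). Serpine2, a secreted protease inhibitor, was at 31.2, 56.2 and 34.0 CPM in cKO and at 18.4, 7.76 and 10.9 CPM in dcKO, against 11.5 to 12.3 CPM in Ctrl. Foxo3, a forkhead transcription factor of the stress and survival response, was at 90.1, 94.5 and 70.4 CPM in cKO. In dcKO it was at 47.8, 40.0 and 46.9 CPM, which overlaps the 42.5 to 48.5 CPM of Ctrl. The DESeq2 adjusted p was 0.00111 for Serpine2 and 0.000698 for Foxo3, the latter with a log2 fold change of -0.92 that is short of the limit of 1.

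Also among the 20 were Slc4a1, Cdh5, Lamb1, Bgn and Abcc9. Several are known from cells other than neural ones. Slc4a1 is the anion exchanger of red cells, Cdh5 the cadherin of endothelial junctions, Fcgr3 an Fc receptor of macrophages, and Lamb1 and Bgn are matrix components. Slc4a1 was at 126, 91.9 and 119 CPM in cKO and at 31.4, 32.8 and 50.9 CPM in dcKO, and Cdh5 at 67.8, 80.5 and 50.2 CPM in cKO and 30.04, 31.7 and 31.1 CPM in dcKO. For Slc4a1 and Cdh5 the cKO and Ctrl embryos overlapped (log2 fold changes of cKO against Ctrl 0.20 and -0.01), and the dcKO embryos were below both. The cKO and Ctrl embryos of Lamb1, Bgn and Abcc9 overlapped as well. Fcgr3 was at 9.30, 10.6 and 6.03 CPM in cKO, at 1.75, 1.53 and 2.40 CPM in dcKO and at 1.88, 3.42 and 3.71 CPM in Ctrl, so that cKO stood apart from both. Fcrls, an Fc receptor-like gene of microglia, was at 14.6, 17.8 and 8.26 CPM in cKO, at 3.30, 3.04 and 4.68 CPM in dcKO and at 5.01, 6.30 and 5.88 CPM in Ctrl. Against Ctrl the log2 fold changes of cKO were 1.53 for Fcgr3, 1.24 for Fcrls, 1.16 for Ass1, 0.91 for Lgals3bp and 0.49 for Tgfbi.

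Of the 48 genes that DESeq2 called lower, 10 belonged to the p53 lists, 6 to the lists of microglia, blood or endothelium and pericytes, and 32 to none of the lists. The p53 lists had 65 tested members, the microglia and blood lists 10 each and that of endothelium and pericytes 12. DESeq2 called 0.351% of all genes tested lower. All 48 are protein coding and had embryos that did not overlap. The p53 list members were Phlda3, Eda2r, Dglucy, Inka2, Cdkn1a, Slc19a2, Ccng1, Sesn2, Plk2 and Tnfrsf10b. Plk2, a polo-like kinase, was at 43.5, 50.3 and 29.6 CPM in cKO and at 17.9, 14.7 and 21.4 CPM in dcKO, with Ctrl at 13.1 to 19.1 CPM. Tnfrsf10b, the mouse TRAIL receptor, was at 20.9, 23.8 and 17.8 CPM in cKO and at 12.99, 7.92 and 7.78 CPM in dcKO. The dcKO embryos overlapped Ctrl in both. A further pair was named after their values were seen. Map3k20, the kinase ZAK of the ribosome stress response, was at 23.97, 19.0 and 23.7 CPM in cKO, at 12.49, 10.7 and 8.65 CPM in dcKO and at 9.17 to 10.02 CPM in Ctrl. Ptpn14, a phosphatase that restrains YAP, was at 14.6, 23.3 and 16.4 CPM in cKO, at 8.38, 7.995 and 9.07 CPM in dcKO and at 8.63 to 9.58 CPM in Ctrl. Their edgeR log2 fold changes of dcKO against cKO were -1.07 and -1.09, with DESeq2 adjusted p-values of 0.00184 and 0.00371. The dcKO embryos lay on both sides of the Ctrl range for Map3k20, and for Ptpn14 1 lay within it and 2 below.

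To see how far the response extends, 78 known p53 targets were sorted by role into 3 lists, of which 65 were tested. The members were chosen with earlier results of these data known, so their counts are descriptions. Of the 65, 49 had a negative log2 fold change in dcKO against cKO, with a median of -0.35. In 21 every dcKO value was under every cKO value, 32.3% against the 3.63% of all genes, and in 1, Pank1, every dcKO embryo lay above. At an unadjusted edgeR p under 0.05 were 18 lower and 1 higher, against 2.38% and 2.05% of all genes tested. With one embryo left out the lower count ran from 13 to 34. It was 34, with 6 higher, without dcKO replicate 3, where 2765 lower and 2872 higher genes passed among all tested. By role that embryo's omission gave 12 lower arrest, 10 apoptosis and 12 stress targets, and without cKO replicate 2 the lower apoptosis targets numbered 3. Against Ctrl the median log2 fold change was 0.42 in cKO and 0.15 in dcKO. These comparisons share the cKO or the Ctrl embryos and are given side by side only. In 36 of the 65 every cKO embryo exceeded every Ctrl embryo, which held for 29.2% of all genes tested. Of these 36, 19 had every dcKO embryo below every cKO embryo. Of the 3992 genes tested with every cKO embryo above every Ctrl embryo, 238 did. In 8 of the 36 every dcKO embryo lay above every Ctrl embryo. That held for 15.6% of all genes tested, a share not chosen by cKO above Ctrl. The 36 were chosen by the same cKO and Ctrl embryos, so both counts are descriptions.

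The list of arrest and feedback genes had 19 tested members with a median log2 fold change of -0.55. Here 8 had embryos that did not overlap, all lower in dcKO. The median log2 ratio of the list to the cKO mean was -0.87, -1.11 and -0.38 in dcKO replicates 1, 2 and 3. Besides Phlda3, Cdkn1a, Ccng1 and Plk2, an unadjusted edgeR p under 0.05 was reached by Zmat3, an RNA-binding zinc finger protein (log2 fold change -0.998), Cgref1 (-0.84) and Trp73, the p53 relative p73 (-0.73). The edgeR adjusted p of each of these 3 was 0.889. Zmat3 was at 114, 124 and 100 CPM in cKO and at 39.0, 91.5 and 38.6 CPM in dcKO. As with Trp53 itself, replicate 2 was the highest dcKO embryo for Zmat3. Mdm2 and Mdm4, the negative regulators of p53, were not lower in dcKO than in cKO, but neither was raised in cKO over Ctrl. Mdm2 was at 41.4 to 49.1 CPM in cKO and at 39.3 to 85.3 CPM in dcKO (log2 fold change 0.34), and Mdm4 at 34.2 to 47.0 CPM in cKO and 38.9 to 103 CPM in dcKO (log2 fold change 0.69, edgeR adjusted p = 0.889). Both were highest in dcKO replicate 2. Ctrl had 54.35 to 64.5 CPM of Mdm2 and 48.8 to 59.7 CPM of Mdm4, with no overlap with the lower cKO ranges. The log2 fold changes of cKO against Ctrl were -0.39 for Mdm2 and -0.42 for Mdm4, so there was no rise in cKO that dcKO could have reversed.

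Of the apoptosis targets 17 were tested, with a median log2 fold change of -0.43 and 7 members whose dcKO embryos all lay below cKO. The list's median log2 ratio to the cKO mean was -0.61, -0.67 and -0.52 in dcKO replicates 1, 2 and 3. Below an unadjusted edgeR p of 0.05 were Eda2r, Tnfrsf10b (log2 fold change -1.12), the nuclease gene Aen (-1.28), Trp53inp1, an autophagy and stress protein (-0.84), Zfp365 (-0.79) and Susd6 (-0.43). Aen differed from the others in that cKO did not exceed Ctrl. It was at 74.6 to 83.0 CPM in Ctrl, 74.5 to 90.7 CPM in cKO and 16.7 to 51.9 CPM in dcKO. Bax, the pore-forming BCL2 family member, was at 29.97 to 47.15 CPM in cKO and at 5.50, 12.7 and 35.6 CPM in dcKO replicates 1, 2 and 3. Its log2 fold change was -1.01 (edgeR adjusted p = 0.889), with replicate 3 inside the cKO range.

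The list of stress, metabolism and repair targets had 29 tested members and a median log2 fold change of -0.25. In 6 every dcKO value was under every cKO value. The dcKO embryos differed more here, with list medians of -0.19, -0.92 and -0.04 relative to the cKO mean in replicates 1, 2 and 3. Dglucy, Inka2, Slc19a2, Sesn2 and Ak1, an adenylate kinase (log2 fold change -1.57, edgeR adjusted p = 0.889), were the lower members under 0.05. Pank1, a pantothenate kinase, was higher, at 43.1, 38.2 and 47.2 CPM in cKO and 78.1, 50.4 and 53.6 CPM in dcKO (log2 fold change 0.50, edgeR adjusted p = 0.889). Among the members that stayed above every Ctrl embryo in dcKO were Sesn1, Gls2, Polk and Ppm1d of the arrest list. Mean CPM of Sesn1, a sestrin, were 31.5 in Ctrl, 60.5 in cKO and 55.8 in dcKO. Gls2, a mitochondrial glutaminase, had 1.25, 4.61 and 4.14 CPM, and Ppm1d, the phosphatase WIP1, 45.7, 65.8 and 63.9 CPM. The log2 fold changes of dcKO against cKO were -0.12 for Sesn1, -0.16 for Gls2 and -0.04 for Ppm1d.

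**Figure D3:**
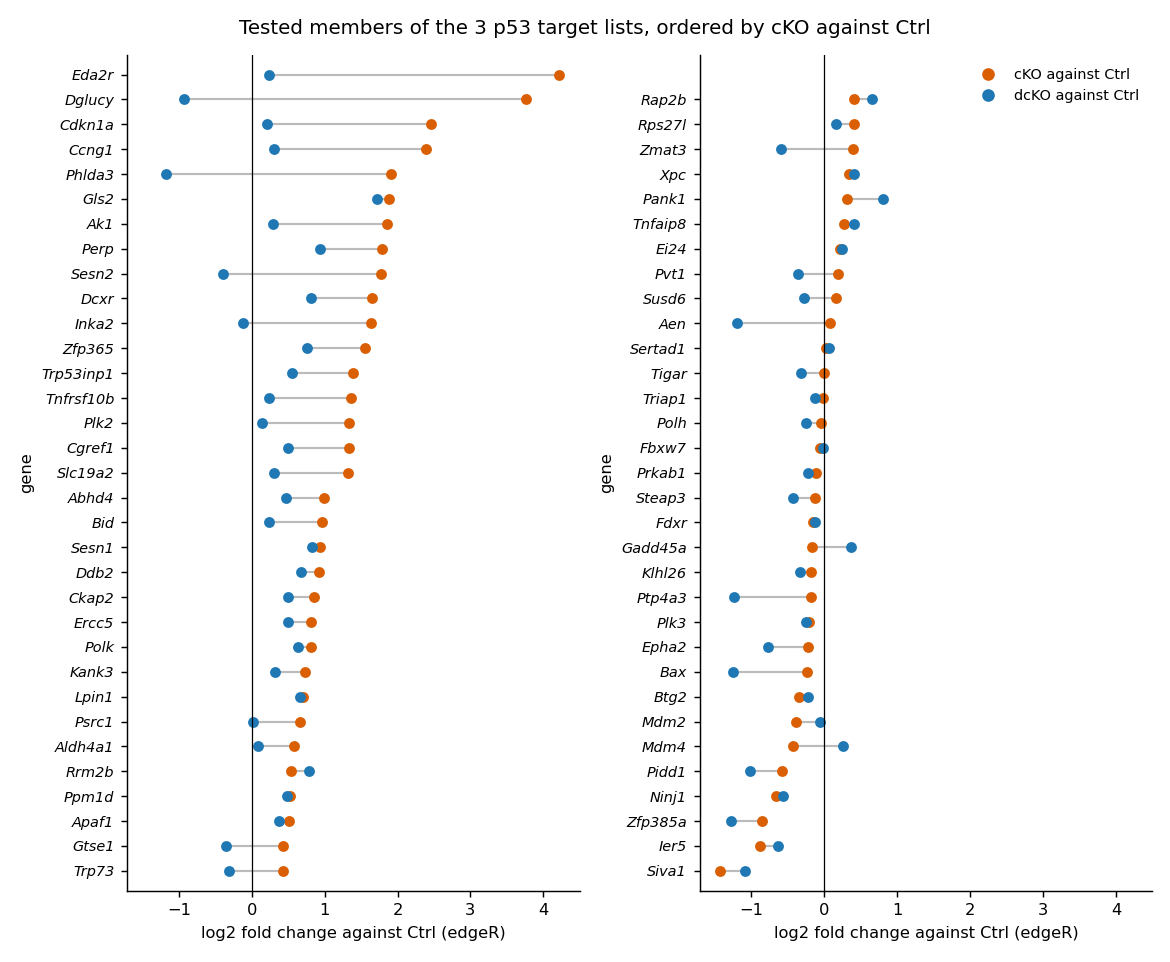
Log2 fold change against Ctrl (x axis) of cKO (orange) and dcKO (blue) for the 65 tested members of the 3 p53 target lists, in the order of the cKO values. Eda2r and Dglucy stand at 4.22 and 3.77 in cKO and at 0.24 and -0.93 in dcKO, whereas Gls2 stands at 1.88 and 1.72.

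Because the test required more than 10 reads in every embryo, 13 of the 78 targets were not tested. In 3 of the 13, Pmaip1, Fas and Ephx1, every dcKO embryo was below every cKO embryo as CPM, and in the other 10 the embryos overlapped or had no reads. Pmaip1, which encodes the BH3-only protein NOXA, had 175, 184 and 81 reads in cKO and 52, 0 and 0 reads in dcKO, with 7 to 15 reads in Ctrl. The death receptor gene Fas had 16, 9 and 14 reads in cKO, 7, 0 and 0 in dcKO and 0 in each Ctrl embryo. Ephx1, an epoxide hydrolase, had 183, 208 and 105 reads in cKO, 53, 38 and 28 in dcKO and 8 to 15 in Ctrl. Bbc3, which encodes PUMA, did not separate, with 68, 129 and 34 reads in cKO and 32, 10 and 127 in dcKO. Tap1, a peptide transporter of antigen presentation, had 170, 257 and 138 reads in cKO and 99, 1 and 181 in dcKO. Trp53cor1, a noncoding RNA near Cdkn1a, had 27, 63 and 29 reads in cKO and 3, 76 and 11 in dcKO. D630023F18Rik, Dram1, Spata18, Sfn, Ptprv and Gdf15 had at most 99 reads in any embryo, and Sco2 had 0 in all.

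The RefSeq promoters of GRCm38.p6, 300 bases from 250 before to 50 after a gene's start, were searched for a p53 response element. The motif was 2 copies of the 10-base p53 half-site, each with CNNG at its centre, with 0 or 1 base between them and at most 2 mismatches to the p53 consensus. The consensus reads the same on both strands. Such a site stood in 218 of 27025 genes with a promoter sequence (0.807%) and in 8 of the 64 p53 targets that had one. Of the 18 p53 targets whose dcKO embryos all lay below cKO and that had a promoter sequence, 5 held it, namely Cdkn1a, Ccng1, Zfp365, Trp73 and Ckap2. Of the other 36 tested targets with a sequence 3 held it. Sites of 4 targets are shown, 3 that were lower in dcKO and Rps27l, which was not, with the 4 central bases of each half-site in capitals.
Cdkn1a: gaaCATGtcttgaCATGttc
Ccng1: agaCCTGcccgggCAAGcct
Zfp365: agaCTAGgctgggCAAGact
Rps27l: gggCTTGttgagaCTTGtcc
They lie at chr17:29090928-29090947 for Cdkn1a, 51 bases before the more upstream of its annotated starts, at chr11:40755462-40755481 for Ccng1 and chr10:67912706-67912725 for Zfp365, both on the minus strand, and at chr9:66946296-66946315 for Rps27l. The sites of Cdkn1a, Ccng1 and Rps27l had 1 mismatch and that of Zfp365 had 2. Rps27l was at 97.5 to 118 CPM in cKO and at 62.8 to 130 CPM in dcKO (log2 fold change -0.25, edgeR adjusted p = 0.905). No site by this definition stood in the window of Phlda3, Eda2r, Inka2 or Dglucy. Of 86 tested genes with a site, 8 had every dcKO embryo below every cKO embryo (9.30%), and of the 78 outside the p53 lists 3 did (3.85%), close to the 3.63% of all genes tested.

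Cell cycle genes that p53 lowers through p21 and the DREAM repressor complex were looked at next. Of 25 DREAM targets of G1/S and 28 of G2/M, 0 reached an unadjusted edgeR p under 0.05 in either direction. Of all genes tested 2.38% were lower and 2.05% higher at that limit. In lists of this size 0 is close to those shares and does not show that a list was unchanged. The same holds for the other lists of this paragraph. In 0 of the G1/S and 1 of the G2/M genes every dcKO value was under every cKO value, against 3.63% of all genes tested. The median log2 fold changes of the lists were 0.05 and 0.04. Without dcKO replicate 3, 6 G1/S genes were lower and 7 higher at that limit, and 5 G2/M genes lower and 8 higher. With voom the counts were 7 and 4, and 3 and 5. Of all 13680 genes 2765 were lower and 2872 higher at that limit without dcKO replicate 3, and 16.0% and 13.9% with voom. Summed CPM of the G2/M list was 6234 to 6966 in cKO and 6033 to 8281 in dcKO. The 19 tested genes of the apoptosis machinery, caspases and BCL2 family members that are not on the p53 lists, likewise had 0 at that limit and a median of 0.12. They had 4 lower and 5 higher without dcKO replicate 3 and 3 lower and 2 higher with voom. With GC correction 0 were lower and 3 higher, against 3.53% and 3.44% of all genes. CCR4-NOT subunits, of which 11 were tested, had a median of 0.17 and 0 at that limit, but 5 higher without dcKO replicate 3 and 4 higher with voom. Of 18 integrated stress response genes, 1 was lower at that limit and 0 higher. The lower gene was Sesn2, which also stands on a p53 list. Without dcKO replicate 3 there were 5 lower and 1 higher, with voom 7 lower and 2 higher, and with GC correction 3 lower and 0 higher.

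**Figure D4:**
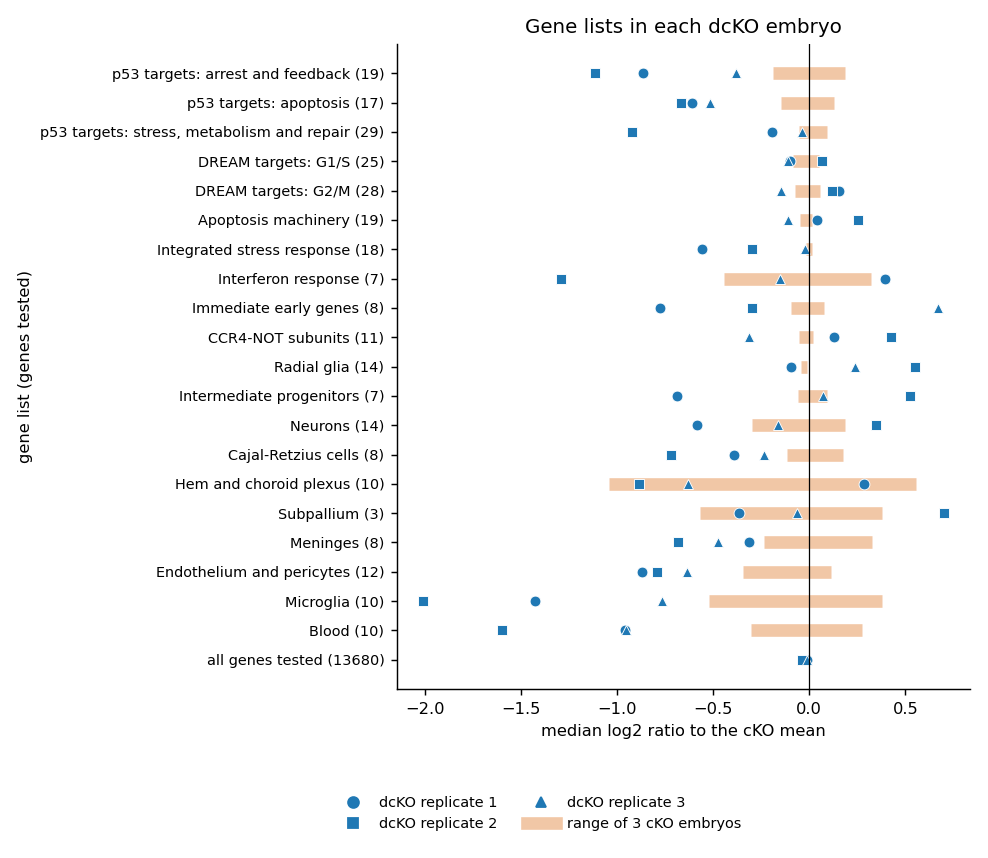
Median log2 ratio to the mean of the cKO embryos (x axis) over the tested genes of each of 20 lists and over all genes tested, for dcKO replicates 1, 2 and 3 (circle, square and triangle), with the range of the 3 cKO embryos as a bar. Among others, the microglia, blood and endothelium lists and the p53 lists for arrest and apoptosis have all 3 dcKO embryos to the left of the cKO bar, and the radial glia and neuron lists have dcKO embryos on both sides.

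Genes of microglia and macrophages, endothelium and blood were lower in dcKO than in cKO as well. These cells do not descend from Emx1-expressing progenitors. In bulk tissue, fewer cells of a type and less RNA per cell cannot be told apart. Of 10 microglia and macrophage genes tested, 8 were lower at an unadjusted edgeR p under 0.05 and 8 had every dcKO embryo below every cKO embryo, against 2.38% and 3.63% of all genes tested, with a median log2 fold change of -1.44. Without cKO replicate 2 only 4 of the 10 were under 0.05. The summed level of the 12 genes of this list ran from 77.7 to 152 CPM in cKO, 31.1 to 54.1 CPM in dcKO and from 63.4 to 75.5 CPM in Ctrl. Mrc1, a mannose receptor of tissue macrophages, was at 37.9, 39.7 and 23.3 CPM in cKO and at 15.9, 8.66 and 8.03 CPM in dcKO. Csf1r, the CSF1 receptor, was at 25.1, 29.0 and 13.8 CPM in cKO and at 7.25, 4.83 and 13.1 CPM in dcKO. Both separated the genotypes, Csf1r narrowly through dcKO replicate 3. Aif1 and Trem2, which were not tested, had 0 reads in dcKO replicate 2.

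All 12 genes of endothelium and pericytes had a negative log2 fold change, with a median of -0.76, and 7 were under 0.05, again against 2.38% of all genes. Pecam1 was at 51.1, 41.5 and 30.7 CPM in cKO and at 21.7, 25.3 and 21.7 CPM in dcKO, and Kdr, the VEGF receptor VEGFR2, at 97.4, 82.2 and 76.9 CPM in cKO and 54.1, 56.9 and 41.7 CPM in dcKO. The summed list overlapped, with 394 to 531 CPM in cKO and 264 to 450.2 CPM in dcKO. All 10 blood genes were on the lower side too, with a median of -1.08 and 8 under 0.05 (2.38% of all genes). The count was 4 without dcKO replicate 1, 5 without cKO replicate 1 and 5 without dcKO replicate 2. Hba-x, an embryonic alpha-like globin, was at 1021, 1022 and 1335 CPM in cKO and at 322, 282 and 658 CPM in dcKO. The summed blood list ran from 9624 to 14630 CPM in cKO and 4980 to 6816 CPM in dcKO. The meninges list had a median of -0.40, with 7 of 8 genes on the lower side and 0 under 0.05. With GC correction its median was -0.54, with 5 of 8 under 0.05, against 3.53% of all genes lower. With voom 3 were, against 16.0%, and with the block and GC correction 3 were, against 2.85%. The p53 targets were lower in the same embryos as these lists, and the part of these cells in the p53 results was not tested. In Ctrl the summed endothelium list lay at 465 to 536 CPM and the summed blood list at 7775 to 11590 CPM, each overlapping cKO, whereas the microglia list did not overlap between Ctrl and cKO.

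**Figure D5:**
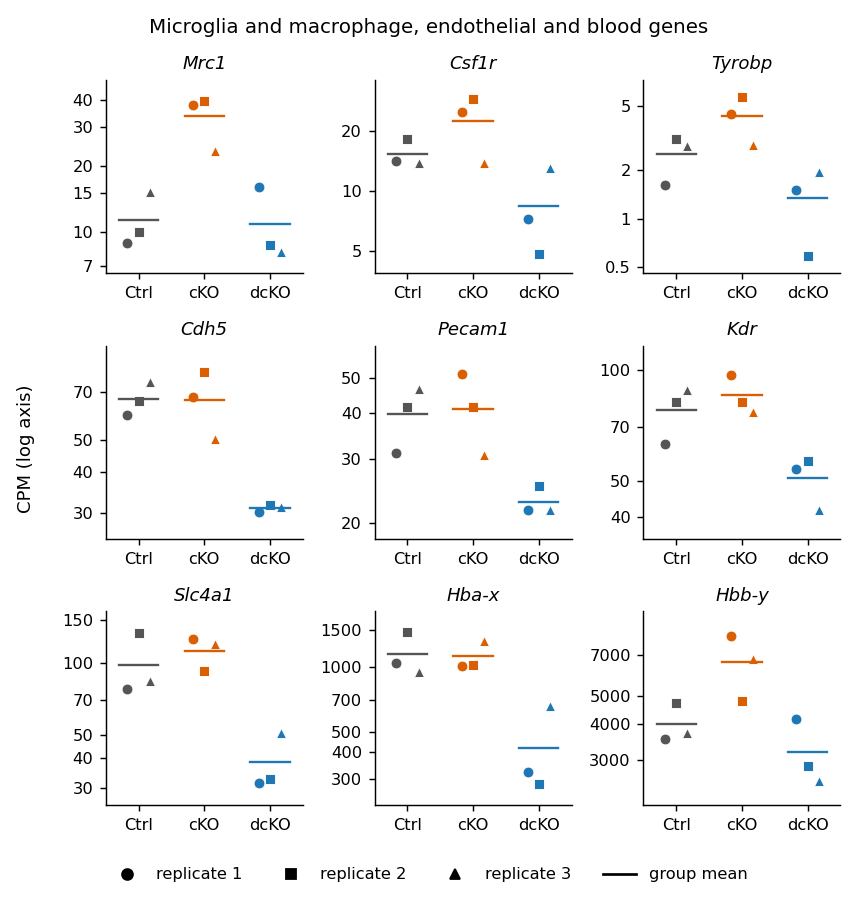
CPM of 3 microglia or macrophage genes (top), 3 endothelial genes (middle) and 3 genes of blood (bottom) in each embryo on a log axis, with the genotype mean as a line. In all 9 genes the dcKO points lie below the cKO points. For Csf1r, Cdh5, Pecam1, Kdr, Slc4a1 and Hba-x they also lie below every Ctrl point, and for Mrc1, Tyrobp and Hbb-y they do not.

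In the neural lists the dcKO embryos went different ways. Of 14 radial glia genes, 3 were higher in dcKO at an unadjusted edgeR p under 0.05, Sox2, Emx2 and Lhx2, against 2.05% of all genes, and the list median was 0.29. The count was 5 with GC correction (3.44% of all genes higher) and without dcKO replicate 1 (3.72%). It was 1 without cKO replicate 2 (0.636%) and 2 with the replicate block (0.76%). Under voom 2 were higher and 1 lower, against 13.9% and 16.0% of all genes. Sox2 was at 111, 108 and 112 CPM in cKO and at 169, 230 and 140 CPM in dcKO, against 110 to 170 CPM in Ctrl (log2 fold change 0.70, edgeR adjusted p = 0.889). Lhx2, a selector of cortical identity, was at 275, 277 and 317 CPM in cKO and at 342, 420 and 623 CPM in dcKO, against 467 to 854 CPM in Ctrl. Of 7 genes of intermediate progenitors 1 was higher, against 2.05% of all genes. This was the proneural factor Neurog2 (log2 fold change 0.57, edgeR adjusted p = 0.889), and its embryos overlapped. The count was 0 with DESeq2, with other scalings, with the replicate block and with the 6 cKO and dcKO embryos alone. It was 0 as well without any one Ctrl embryo, cKO replicate 2 or cKO replicate 3. With voom 2 were lower and 0 higher, and without dcKO replicate 2 1 was lower and 0 higher. The median of this list relative to the cKO mean was -0.69, 0.52 and 0.07 in dcKO replicates 1, 2 and 3. Of 14 neuronal genes 0 were under 0.05, whereas with voom 7 were lower, against 16.0% of all genes, and without dcKO replicate 3 there were 4 lower and 4 higher. Their median was -0.02 overall and -0.58, 0.35 and -0.16 in dcKO replicates 1, 2 and 3. Of 8 Cajal-Retzius genes, Reln and Trp73 were lower, Reln with 122, 88.9 and 59.6 CPM in cKO and 50.8, 49.6 and 57.0 CPM in dcKO. At that limit 2.38% of all genes were lower. The count of 2 was 1 without Ctrl replicate 1, Ctrl replicate 2, dcKO replicate 2 or any one cKO embryo. It was 1 as well with the 6 cKO and dcKO embryos alone, with the replicate block and with voom. Without dcKO replicate 3 it was 4, where 20.2% of all genes were lower.

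Read across all 3 genotypes, 117 genes (0.855%) had every cKO embryo above every Ctrl and every dcKO embryo, with a cKO mean at least 1.5 times each other mean, and 43 (0.314%) had the opposite pattern. Of the 117, 15 were on the p53 lists, 3 on the lists of microglia, blood, endothelium or meninges and 99 on none of the lists. The same rule with dcKO as the odd genotype found 48 above and 120 below, and with Ctrl as the odd genotype 721 above and 1068 below. Leaving out cKO replicate 3, dcKO replicate 1 or dcKO replicate 3 took the 117 to 290.0, 299 and 304.

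DESeq2 called 4 genes higher in dcKO. AA465934, a noncoding transcript on chromosome 11 from 83291699 to 83294632, had the largest positive log2 fold change. It was at 0.912, 1.153 and 1.62 CPM in cKO and at 13.6, 35.1 and 15.6 CPM in dcKO (log2 fold change 4.12, edgeR adjusted p = 0.347, DESeq2 adjusted p = 4.76e-06). Ctrl embryos had 2.16, 1.78 and 12.6 CPM, so Ctrl replicate 3 stood near the dcKO embryos. The other 3 were Gm15975, a processed pseudogene, the noncoding Gm20300 and the protein-coding Gm6685, each under 13 CPM in every embryo. Among protein-coding genes of clear function, Cdkn1b, the CDK inhibitor p27, was at 80.9, 84.4 and 87.7 CPM in cKO and at 120, 141 and 124 CPM in dcKO, with Ctrl at 76.4 to 102 CPM (log2 fold change 0.60, edgeR adjusted p = 0.762). Scd1, a stearoyl-CoA desaturase, was at 49.2, 51.8 and 51.8 CPM in cKO and at 96.3, 71.8 and 87.6 CPM in dcKO (log2 fold change 0.74, edgeR adjusted p = 0.671). Insig1, a regulator of sterol synthesis, was at 96.0, 69.2 and 88.0 CPM in cKO and at 131, 141 and 123 CPM in dcKO (log2 fold change 0.64). For these 3 genes the embryos did not overlap, and neither edgeR nor DESeq2 called them. The others of the 10 higher genes with the smallest p were Tusc1, 6330403K07Rik and Zfp354b, with log2 fold changes of 1.54, 0.62 and 1.297.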

How the data were processed

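Cortical RNA of 9 embryos was sequenced by the authors from stranded poly(A) libraries, aligned with STAR to mm39 and counted with featureCounts. They deposited raw counts of reads for 57010 genes, whole numbers with no normalization, of which 30138 had no read. Columns were assigned to embryos by their labels. The members and gene lists were chosen with earlier results of these data known. Genes were kept where each of the 9 embryos exceeded 10 reads, and these 13680 were tested in R 4.3.3 with edgeR 4.0.16 (TMM, quasi-likelihood, one model of all 9 embryos, Benjamini-Hochberg adjustment), and DESeq2 1.42.0 and limma 3.58.1 served as alternatives. A standard error is the size of the log2 fold change over the square root of F. CPM were counts over TMM-scaled library sizes of the tested genes. Positions and GC content came from GENCODE M21 on GRCm38, which matched 52081 identifiers, and promoters from RefSeq on GRCm38.p6. A promoter sequence matched 9827 of the tested genes by symbol. Alternatives were other scalings, filters, models, a GC correction, a replicate block and leaving out each embryo. Those that left out an embryo from the counts of genes odd in one genotype were chosen after seeing the data. The procedure was tested on simulated counts. The text names Cnot3, Trp53, Xist, Eda2r, Cdkn1a, Ccng1 and Sesn2, both genes called by edgeR, some of those called by DESeq2 alone, the 20 lower and 10 higher genes with the smallest edgeR p whose embryos did not overlap, some of the list members with an unadjusted p under 0.05, the members of the p53 lists that were not tested, and a few further genes whose values illustrate a list and which were chosen after they were seen (Mdm2, Mdm4, Bax, Rps27l, Sesn1, Gls2, Polk, Ppm1d, Map3k20, Ptpn14 and the genes of the sterol pathway). Embryos are separate animals, 3 per genotype, whose labels number them 1 to 3. The column names hold another number, which each Ctrl embryo shares with a cKO or dcKO embryo. No cKO embryo shares it with a dcKO embryo. What it stands for is not given, and no fit used it.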

Additional observations from a re-analysis of the deposited data

How the results depend on the processing

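The direction of Phlda3 and Eda2r was kept under every setting run, but the counts of calls were not. Lower and higher genes numbered 48 and 4 with DESeq2, 24 and 3 with limma voom and quality weights, 7 and 1 with no filter, 9 and 0 with GC correction, 4 and 0 at an adjusted p under 0.1, and 0 and 0 with the 6 cKO and dcKO embryos alone. With one embryo left out they ran from 0 to 883 and from 0 to 353. Labels number the embryos, but same-numbered embryos did not deviate together (mean r of -0.18 over 3 pairs, against 0.09 over 6 others). With the replicate block 0 and 0 genes were called, and with the block and GC correction 6 and 0.

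The log2 fold change of Cnot3 turned negative with voom (-0.72) and without dcKO replicate 2 (-0.25), and ran to 1.11 with others left out. With voom the list medians were -0.92 for p53 arrest, -0.61 for p53 apoptosis, -0.090 for G1/S, -0.43 for the integrated stress response, -0.62 for immediate early genes, 0.019 for radial glia, -0.61 for intermediate progenitors, -0.52 for neurons and -0.14 for subpallium, and those for hem and choroid plexus and for the interferon response turned from -0.21 and -0.10 to 0.47 and 0.40. Voom's quality weights were 1.19, 0.125 and 0.112 for dcKO replicates 1, 2 and 3, so its dcKO side rests mostly on replicate 1. The causes were not tested. With one embryo left out the medians ran from -1.02 to -0.42 for p53 arrest, -0.59 to -0.34 for p53 apoptosis, -0.59 to -0.28 for the 3 p53 lists, -0.016 to 0.16 for G1/S, -0.37 to -0.035 for the integrated stress response, -0.46 to 0.34 for immediate early genes, -0.15 to 0.61 for intermediate progenitors, -0.24 to 0.36 for neurons, -0.50 to -0.13 for Cajal-Retzius cells, -0.24 to 0.53 for subpallium, -0.81 to 0.057 for hem and choroid plexus, -0.56 to 0.30 for the interferon response, -0.49 to -0.21 for p53 stress, 0.15 to 0.45 for radial glia, 0.047 to 0.30 for CCR4-NOT, -0.56 to -0.22 for meninges, -0.0011 to 0.19 for the apoptosis machinery and -0.022 to 0.096 for G2/M.

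Genes with cKO above both other genotypes numbered 177 when scaled by library size alone, 219 with filterByExpr, 51 at a limit of 2 times and 238 with no fold limit, and those below numbered 18, 77, 11 and 130. With one embryo left out, a choice made after seeing the data, they ran from 110 to 304 and from 36 to 205. A count of calls this dependent on single embryos limits what 3 embryos per genotype can show.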

Other observations

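Genes of sterol and fatty acid synthesis, looked at after Scd1 and Insig1 had been seen among the higher genes, are given here with their values. Scd2, the main desaturase of the brain, was at 1238, 1135 and 1394 CPM in cKO and at 1819, 2480 and 1814 CPM in dcKO, with Ctrl at 2168 to 2395 CPM (log2 fold change of dcKO against cKO 0.70, edgeR adjusted p = 0.866). Cyp51, a demethylase of lanosterol, was at 161, 129 and 167 CPM in cKO and at 235, 419 and 176 CPM in dcKO, and Hmgcs1, which forms HMG-CoA, at 274, 244 and 297 CPM in cKO and 396, 631 and 343 CPM in dcKO. In all 3 genes every dcKO embryo lay above every cKO embryo, which held for 2.62% of all genes tested. The genes were picked after their values were seen, so this is a description. Fasn, fatty acid synthase, did not separate, with 222 to 289 CPM in cKO and 118, 185 and 559 CPM in dcKO replicates 1, 2 and 3. Neither edgeR nor DESeq2 called any of these genes.

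Of the 7 tested genes of the interferon response list, 7 had every cKO embryo and 3 every dcKO embryo above every Ctrl embryo, against 29.2% and 15.6% of all genes tested. Oasl2, an interferon-induced gene that was not tested, had 26 to 36 reads in Ctrl, 260, 377 and 90 reads in cKO and 499, 0 and 212 reads in dcKO replicates 1, 2 and 3. The tested genes had a median log2 fold change of 1.40 in cKO and 1.2 in dcKO against Ctrl and of -0.10 in dcKO against cKO. Genes of the cortical hem and choroid plexus had medians of 1.75 and 1.29 against Ctrl, and -0.21 in dcKO against cKO.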
